A study of Mus musculus with 6 samples.

Results

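The mRNA of 10 Wnt ligand genes was described in the cochlear and vestibular sensory epithelium of newborn mice. The genes are Wnt2b, Wnt3, Wnt4, Wnt5a, Wnt5b, Wnt6, Wnt7a, Wnt7b, Wnt9a and Wnt11, 10 of the 39179 genes in the count tables and 10 of the 19 Wnt ligand genes among them. They were listed by name, and Wnt3 was selected on its counts in these libraries, so the values of Wnt3 are given as a description without a test. The other 9 were also listed with earlier results of these data known, which limits what their p-values below can show. RNA-seq was performed on 6 libraries, 3 from cochlea and 3 from vestibule, of wild-type C57Bl/6J mice at postnatal day 0 with males and females pooled, and the labels name no treatment. The RNA came from epithelia pooled from 20 ears. No label ties the 3 libraries of a tissue to separate animals, so the p-values below measure the spread between these libraries, which may be technical.

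Wnt proteins are secreted, lipid-modified signals that bind Frizzled receptors. With the co-receptors Lrp5 and Lrp6 they stabilise beta-catenin (the canonical branch), and with Ror, Ryk and Ptk7 they act on cell polarity and movement (the non-canonical branch). In the inner ear, canonical signalling is known for its role in the specification of the otic epithelium and the proliferation of sensory progenitors, and non-canonical signalling for the orientation of hair cell bundles and the elongation of the cochlear duct.

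All 10 genes had at least 1 CPM (read-pair counts of a gene scaled to a common total of counts on genes) in each of the 6 libraries, which held 24464483 to 33664793 counts on genes. None therefore passed the filter on low counts, at least 1 CPM in 3 or more libraries, through 1 tissue alone. Among the 9 genes other than Wnt3, 4 were higher in the vestibule (Wnt2b, Wnt11, Wnt6 and Wnt5b) and 3 were higher in the cochlea (Wnt7a, Wnt9a and Wnt7b) in edgeR's quasi-likelihood test at an FDR of 0.05. Wnt4 and Wnt5a did not pass the test. Over all 14723 genes tested, 15.8% were higher in the vestibule, 11.6% were higher in the cochlea and 27.4% were called in either direction. The median of the absolute log2 fold change was 1.34 over the 9 ligands and 0.32 over all genes tested. The counts and medians of these 9 genes describe the list as it was chosen. In bulk tissue, more cells that express a ligand and more RNA per cell cannot be told apart.

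**Figure D1:**
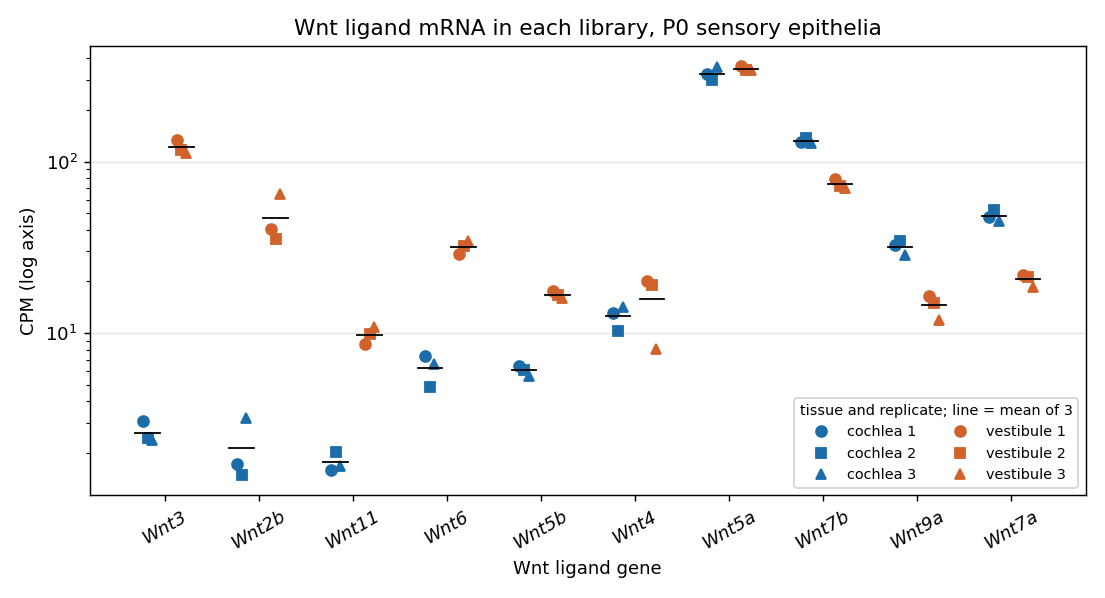
CPM on a log axis of the 10 Wnt ligand genes in each of the 3 cochlear (blue) and 3 vestibular (orange) libraries, with a line at the mean of each tissue and a marker shape for each replicate number. The 3 vestibular libraries lie above the 3 cochlear ones for Wnt3, Wnt2b, Wnt11, Wnt6 and Wnt5b and below them for Wnt7b, Wnt9a and Wnt7a, while the tissues overlap for Wnt4 and Wnt5a.

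Marker genes of several cell types differed between the libraries, and for each list the summed CPM is given with the number of its genes whose libraries did not overlap between the tissues. Over all genes tested, 27.5% were higher in every vestibular library than in any cochlear one and 14.3% were higher in every cochlear library. The 8 hair cell markers summed to 531-728 CPM in the cochlea against 1026-1294 CPM in the vestibule, with 5 genes higher in every vestibular library and 1 (Myo6) in every cochlear one. The 8 supporting cell markers summed to 783-978 against 443-483 CPM, with 7 higher in every cochlear library. The 4 markers of the cochlear floor and tectorial membrane summed to 10394-12911 against 1228-1308 CPM (3 higher in every cochlear library). The 5 otolithic markers (Oc90, Otop1, Otol1, Nox3 and Otog) summed to 1948-2953 against 10388-12068 CPM, most of it Oc90. All 5 were higher in every vestibular library. The 8 mesenchyme markers summed to 4052-4519 against 6641-7537 CPM, largely through Col1a2, with 5 higher in every vestibular library and 2 in every cochlear one (Lum and, by a small margin, Pou3f4). The sums were 508-675 against 1099-1484 CPM for the 6 Schwann cell markers and 65.1-116 against 357-506 CPM for the 5 endothelial markers, with 5 genes of each higher in every vestibular library. The sum of the 6 cartilage markers, most of it Col2a1, overlapped at 10455-17814 and 12984-16387 CPM, but 4 of them (Acan, Col9a1, Hapln1 and Comp) were higher in every vestibular library and 1 (Matn1) in every cochlear one. The sum of the 6 neuron markers also overlapped, at 285-600 and 135-351 CPM, while 2 of them (Syt1 and Tubb3) were higher in every cochlear library. The 5 red blood cell markers overlapped singly and in sum, at 292-736 and 475-637 CPM. No marker was at 0 throughout. Cochlea replicate 3 stood apart by its 8 skeletal muscle markers, which summed to 257 CPM there and to 3.56-24.5 CPM in the other libraries. The part of these cell types in the Wnt differences was not tested. Without cochlea replicate 3, the calls of the 9 ligands did not change.

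Wnt3 (ENSMUSG00000000125, chr11:103774150-103817957 on the plus strand of GRCm38), a canonical ligand required for gastrulation and limb outgrowth, differed the most between the tissues among the 10 genes. The counts were 75, 70 and 69 in the cochlear libraries and 4523, 3003 and 2853 in the vestibular ones, that is 3.07, 2.43 and 2.36 CPM against 134, 117 and 112 CPM. The cochlear mean was 2.62 ± 0.388 CPM (SD, n = 3) and the vestibular mean 121 ± 11.7 CPM (SD, n = 3), a ratio of 46.2. The lowest vestibular library was far above the highest cochlear one. The fitted log2 fold change, vestibule minus cochlea, was 5.41.

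Wnt3 lies beside Wnt9b on chromosome 11, 24328 bases apart in the GENCODE vM21 annotation, transcribed in opposite directions with 0 annotated genes between them. Wnt9b, a ligand known from kidney tubule formation, had 1, 1 and 1 counts in the cochlea against 63, 28 and 21 in the vestibule (0.824-1.87 CPM), too few for the filter. A second such pair on chromosome 11 is Wnt9a and Wnt3a, 16175 bases apart, also in opposite directions with 0 genes between them. Wnt9a was higher in the cochlea, while Wnt3a had 0, 0 and 1 counts in the cochlea against 15, 15 and 3 in the vestibule. The sequences before the start of these 4 genes are shown because the pairs share an arrangement and their abundant members, Wnt3 and Wnt9a, differed between the tissues in opposite directions. They were taken from RefSeq on GRCm38.p6, which held a promoter for 8 of the 10 ligands, and stop before the first annotated exon. Capitals mark the GC box GGGCGG and the CCAAT box on either strand, with overlapping matches joined.
Wnt3, chr11:103773925-103774149, plus strand: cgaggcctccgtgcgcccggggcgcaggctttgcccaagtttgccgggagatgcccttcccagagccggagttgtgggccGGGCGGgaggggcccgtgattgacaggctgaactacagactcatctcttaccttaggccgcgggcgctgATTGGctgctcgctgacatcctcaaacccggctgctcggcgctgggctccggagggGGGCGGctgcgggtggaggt
Wnt9b, chr11:103749822-103750071, minus strand: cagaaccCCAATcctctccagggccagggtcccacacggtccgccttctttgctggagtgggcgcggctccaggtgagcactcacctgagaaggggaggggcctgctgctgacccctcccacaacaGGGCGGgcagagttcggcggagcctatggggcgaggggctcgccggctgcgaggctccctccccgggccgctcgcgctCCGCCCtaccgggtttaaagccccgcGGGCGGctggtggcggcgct
Wnt9a, chr11:59306680-59306927, plus strand: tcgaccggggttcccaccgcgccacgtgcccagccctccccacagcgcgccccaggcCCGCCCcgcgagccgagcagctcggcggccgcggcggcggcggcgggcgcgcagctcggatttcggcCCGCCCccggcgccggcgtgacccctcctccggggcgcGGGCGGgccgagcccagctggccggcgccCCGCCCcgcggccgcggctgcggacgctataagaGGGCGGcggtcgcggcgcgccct
Wnt3a, chr11:59290753-59291001, minus strand: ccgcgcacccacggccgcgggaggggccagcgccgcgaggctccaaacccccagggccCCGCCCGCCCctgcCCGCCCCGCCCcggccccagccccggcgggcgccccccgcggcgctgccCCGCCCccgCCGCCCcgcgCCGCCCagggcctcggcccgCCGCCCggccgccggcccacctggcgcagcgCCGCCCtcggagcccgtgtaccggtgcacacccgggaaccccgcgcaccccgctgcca

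GC content and boxes were counted in the 250 bases before the RefSeq start, a window that for Wnt3, Wnt9a and Wnt3a ends inside the first GENCODE exon and so runs past the printed sequence. The Wnt3 window had a GC content of 68.0% with 2 GC boxes and 1 CCAAT box, and that of Wnt9b 72.0% with 3 GC boxes and 1 CCAAT box. Wnt9a had 84.4% GC with 5 GC boxes, and Wnt3a 87.6% with 9, and neither had a CCAAT box. Over 32851 RefSeq promoters of this length the median GC content was 52.4%, 32.7% held a GC box and 33.9% a CCAAT box on either strand. The letters CTTTGA, a core of the TCF/LEF motif that beta-catenin's partners bind, were in 13.8% of all promoters. They were in none of these 4 promoters, and among the ligands they were found at 1 Wnt11 start and 1 of the 3 Wnt5b starts. The letters TATAAA were in 12.4% of all promoters and among the ligands at 1 Wnt11 start. These matches describe the letters in this window only.

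Wnt2b (ENSMUSG00000027840, chr3:104945272-104961921, minus strand), a canonical ligand known from the margin of the retina, was the next most different gene. It reached 42, 43 and 93 counts in the cochlea against 1365, 908 and 1641 in the vestibule, or 1.72, 1.49 and 3.18 CPM against 40.5, 35.4 and 64.4 CPM. Replicate 3 was the highest of each tissue, yet the tissues were far apart. The means were 2.13 ± 0.918 and 46.8 ± 15.5 CPM (SD, n = 3 each), a ratio of 22.0, with a log2 fold change of 4.35 (SE 0.36, edgeR adjusted p = 5.41e-05). Without cochlea replicate 3 the log2 fold change was 4.74, and without vestibule replicate 3 it was 4.01.

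Wnt6 (ENSMUSG00000033227, chr1:74771892-74785322, plus strand), a ligand of surface ectoderm, had 179, 139 and 193 counts in the cochlea against 972, 831 and 874 in the vestibule. These were 7.32, 4.83 and 6.60 CPM against 28.9, 32.4 and 34.3 CPM, and every vestibular library was above every cochlear one. The means were 6.25 ± 1.28 and 31.8 ± 2.75 CPM (SD, n = 3 each) and the log2 fold change was 2.24 (SE 0.19, edgeR adjusted p = 5.41e-05). Its neighbour Wnt10a, 6193 bases away on the same strand, had 1, 3 and 1 counts in the cochlea against 21, 13 and 21 in the vestibule.

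Wnt11 (ENSMUSG00000015957, chr7:98835112-98855195, plus strand), a non-canonical ligand of convergent extension and kidney branching, was scarce in the cochlea. It had 39, 58 and 49 counts there against 290, 252 and 275 in the vestibule, or 1.59, 2.01 and 1.68 CPM against 8.61, 9.81 and 10.8 CPM. The tissues did not overlap, with means of 1.76 ± 0.222 and 9.74 ± 1.09 CPM (SD, n = 3 each). The log2 fold change was 2.34 (SE 0.23, edgeR adjusted p = 0.000127).

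Wnt5b (ENSMUSG00000030170, chr6:119432531-119544347, minus strand), a non-canonical ligand known in cartilage, had 157, 176 and 165 counts in the cochlea against 590, 428 and 407 in the vestibule. Its CPM were 6.42, 6.11 and 5.65 against 17.5, 16.7 and 16.0, which gave means of 6.06 ± 0.389 and 16.7 ± 0.777 CPM (SD, n = 3 each). The libraries of a tissue were close to each other and the tissues did not overlap, with a log2 fold change of 1.34 (SE 0.16, edgeR adjusted p = 0.000333). Fbxl14, a gene on the opposite strand, overlaps Wnt5b and had 1285 to 1936 counts per library. Whether the counting used strand is not given in the sources used here, and without strand the reads of overlapping genes cannot be told apart.

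Wnt7a (ENSMUSG00000030093, chr6:91363981-91411363, minus strand), known for dorsal patterning of the limb, had the most negative log2 fold change of the 10 genes, with Wnt9a within 1 SE of it. It had 1161, 1504 and 1309 counts in the cochlea against 732, 546 and 474 in the vestibule, or 47.5, 52.2 and 44.8 CPM against 21.7, 21.3 and 18.6 CPM. The lowest cochlear library was above the highest vestibular one. The means were 48.2 ± 3.76 and 20.5 ± 1.69 CPM (SD, n = 3 each) and the log2 fold change was -1.35 (SE 0.13, edgeR adjusted p = 0.000138).

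Wnt9a (ENSMUSG00000000126, chr11:59306928-59333552, plus strand), a ligand of joint formation, had 802, 988 and 836 counts in the cochlea against 555, 386 and 303 in the vestibule. These were 32.8, 34.3 and 28.6 CPM against 16.5, 15.0 and 11.9 CPM, without overlap. The means were 31.9 ± 2.95 and 14.5 ± 2.35 CPM (SD, n = 3 each), with a log2 fold change of -1.27 (SE 0.16, edgeR adjusted p = 0.000462).

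Wnt7b (ENSMUSG00000022382, chr15:85535437-85582473, minus strand), a canonical ligand of lung and brain vessel development, had 3195, 3943 and 3746 counts in the cochlea against 2651, 1849 and 1796 in the vestibule. It was at 131, 137 and 128 CPM against 78.7, 72.0 and 70.5 CPM, and all cochlear libraries were above all vestibular ones. The means were 132 ± 4.50 and 73.7 ± 4.39 CPM (SD, n = 3 each) and the log2 fold change was -0.96 (SE 0.12, edgeR adjusted p = 0.000419). An antisense gene that overlaps it, AU022754, had 36, 46 and 99 counts in the cochlea against 276, 127 and 71 in the vestibule, at most 8.20 CPM.

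Wnt5a (ENSMUSG00000021994, chr14:28504750-28527448, plus strand), the non-canonical ligand known for planar polarity and extension of the cochlear duct, had the highest RPKM (counts per length of gene) of the 10 in each library. It had 7918, 8597 and 10446 counts in the cochlea against 12109, 8809 and 8774 in the vestibule. The CPM were 324, 298 and 357 against 360, 343 and 344, so that the tissues overlapped. The means were 327 ± 29.6 and 349 ± 9.26 CPM (SD, n = 3 each) and the log2 fold change was -0.02 (SE 0.12, edgeR adjusted p = 0.92), with a 95% interval from -0.30 to 0.25. The sign of this value changed with the scaling and with the libraries used. Its antisense overlap Gm2670 had at most 5.85 CPM.

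Wnt4 (ENSMUSG00000036856, chr4:137277489-137299726, plus strand), known in kidney and gonad formation, varied the most among vestibular libraries relative to its level. It had 318, 297 and 416 counts in the cochlea against 674, 489 and 205 in the vestibule, or 13.0, 10.3 and 14.2 CPM against 20.0, 19.0 and 8.05 CPM. Vestibule replicate 3 was below every cochlear library, and the other vestibular libraries were above them all. The log2 fold change was 0.20 (SE 0.29, edgeR adjusted p = 0.658) with a 95% interval from -0.47 to 0.87. Without vestibule replicate 3 it was 0.51 with an adjusted p of 0.0759, and over all alternatives the adjusted p ranged from 0.0759 to 0.958.

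**Figure D2:**
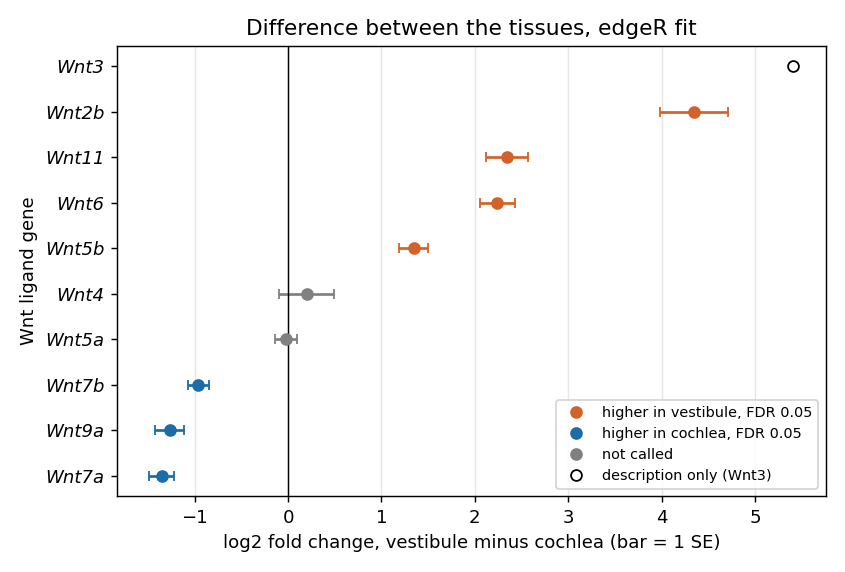
Log2 fold change of each Wnt ligand gene, vestibule minus cochlea, from the edgeR fit on all genes, with a bar of 1 SE to each side; orange and blue points passed an FDR of 0.05, grey ones did not and the open point (Wnt3) is a description, drawn without a bar. The values run from 5.41 for Wnt3 to -1.35 for Wnt7a, with Wnt4 at 0.20 and Wnt5a at -0.02.

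Counted by library, the 3 vestibular values were all above the 3 cochlear ones for 4 of the 9 genes other than Wnt3 and all below for 3. Beside these stand 27.5% and 14.3% of all genes tested.

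To compare levels between genes, the authors' RPKM, which divides by gene length, was used. In the cochlea the order by mean RPKM was Wnt5a (41.8 ± 3.80, SD, n = 3 here and below), Wnt7b (29.9 ± 1.02), Wnt7a (15.2 ± 1.19) and Wnt9a (9.60 ± 0.886), and these 4 did not overlap with each other. Wnt6 (3.03 ± 0.622) and Wnt4 (2.99 ± 0.480) followed and could not be ordered, and with lengths from the exons of GENCODE vM21 they changed places. Wnt5b was at 2.29 ± 0.146 RPKM and overlapped with Wnt6. Wnt3 (0.856 ± 0.126) overlapped with Wnt2b (0.600 ± 0.257), and Wnt2b with Wnt11 (0.488 ± 0.0612), at the low end of the cochlear order.

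In the vestibule Wnt5a was again first at 44.7 ± 1.19 RPKM and Wnt3 was next at 39.4 ± 3.83 RPKM, without overlap of their libraries. Wnt7b (16.7 ± 1.0), Wnt6 (15.4 ± 1.33) and Wnt2b (13.1 ± 4.34) all overlapped with each other. Wnt7a (6.49 ± 0.535) overlapped with Wnt5b (6.32 ± 0.294), Wnt9a (4.36 ± 0.707) with Wnt4 (3.75 ± 1.59), and Wnt4 with Wnt11 (2.69 ± 0.301). The ratio of Wnt5a to Wnt3 in RPKM was 41.4, 48.1 and 59.3 in the cochlear libraries and 1.05, 1.15 and 1.21 in the vestibular ones.

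The summed RPKM of the 10 genes was 106.9, 105.0 and 108.5 in the cochlea against 158.7, 148.8 and 151.7 in the vestibule. Without Wnt3 the sum was 105.9, 104.2 and 107.7 against 115.0, 110.7 and 115.2, so that most of the higher sum of the vestibule was Wnt3. The sum without Wnt3 adds genes higher in the vestibule to genes higher in the cochlea, in RPKM scaled by library size without TMM. As a share of the sum of 10, Wnt3 made up 0.801% ± 0.119 in the cochlea against 25.7% ± 1.77 in the vestibule (SD, n = 3, here and below). Wnt5a, which was not called, went from 39.1% ± 2.91 to 29.2% ± 0.276. Wnt7b went from 28.0% ± 1.42 to 10.9% ± 0.360 and Wnt6 from 2.83% ± 0.553 to 10.1% ± 1.14. A share depends on the other genes in the sum, so these values carry no test.

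**Figure D3:**
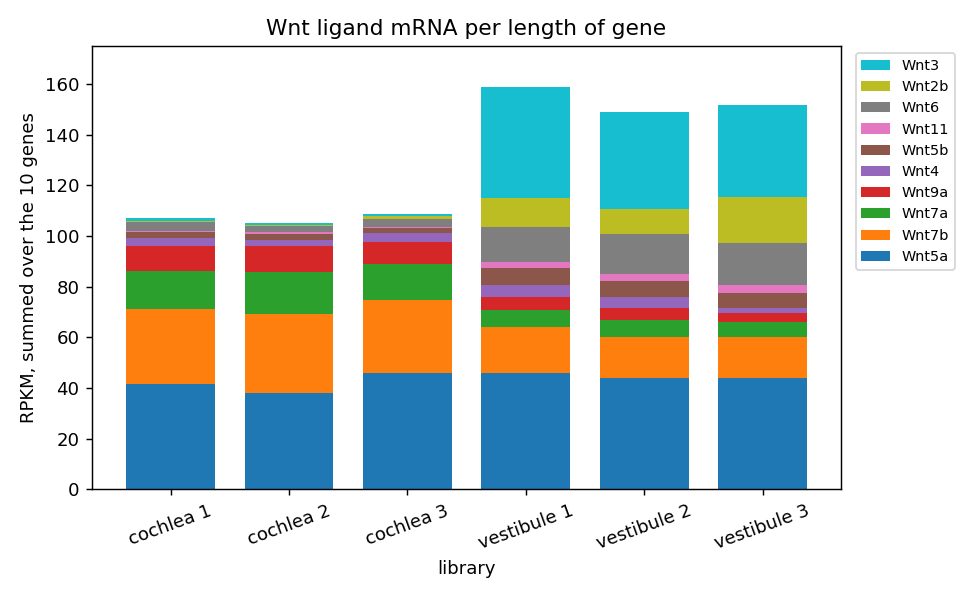
RPKM of the 10 Wnt ligand genes stacked for each library, with 1 colour per gene. The stacks reach 105.0 to 108.5 RPKM in the cochlea and 148.8 to 158.7 RPKM in the vestibule, where Wnt3 on top and Wnt2b and Wnt6 beneath it are wide, while the Wnt5a segment at the base is 41.8 RPKM on average in the cochlea against 44.7 in the vestibule.

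Ratios between members of the same subfamily were also compared between the tissues. The ratio of Wnt5a to Wnt5b in RPKM was 17.1, 16.5 and 21.4 in the cochlea against 6.96, 6.98 and 7.31 in the vestibule, without overlap. The ratio of Wnt7b to Wnt7a was 1.98, 1.88 and 2.06 in the cochlea against 2.60, 2.43 and 2.72 in the vestibule, also without overlap, although both genes were higher in the cochlea. The differences between these ratios were described and not tested.

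The other 9 Wnt ligand genes were at trace levels. Wnt1, Wnt2, Wnt3a, Wnt8a, Wnt8b, Wnt9b, Wnt10a, Wnt10b and Wnt16 had at most 8 counts in any cochlear library (0.327 CPM) and at most 4.28 CPM in any vestibular one. The 3 vestibular CPM were all above the 3 cochlear ones for 6 of the 9. For Wnt1 this rests on 1 count against 1 count, 0.0393 CPM in vestibule replicate 3 against 0.0342 CPM in cochlea replicate 3. The share over the genes tested was 27.5%, but of the 9 only Wnt10b was among these, so it is not a like background for such low counts. Wnt10b, which lies 11706 bases from Wnt1 on chromosome 15, passed the filter only because of the vestibule and so is given without a test. It had 0, 0 and 3 counts in the cochlea against 144, 63 and 34 in the vestibule, or 4.28, 2.45 and 1.33 CPM there. No other of these genes reached 2 CPM in any library, with Wnt9b the next highest at 1.87 CPM.

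The likeness of patterns was measured by Pearson's r of log2 CPM over the 6 libraries, which the split between 2 tissues of 3 libraries dominates. For Wnt3 the 3 most alike genes were Mansc4 (r = 0.9995), Bmp3 (0.9993), a member of the bone morphogenetic protein family, and Nfe2 (0.9993), a transcription factor of blood cells. Mansc4 was at 1.74-2.04 CPM in the cochlea and 16.0-18.7 CPM in the vestibule, Bmp3 at 5.80-6.42 and 39.1-43.2 CPM, and Nfe2 at 8.35-9.24 and 29.6-33.4 CPM. In all, 231 of 14722 genes (1.57%) had an r of at least 0.99 with Wnt3. Among the ligands, Wnt5b (r = 0.999), Wnt11 (0.988) and Wnt6 (0.988) were most like Wnt3, Wnt2b was most like Wnt6 (0.984), Wnt7a and Wnt7b were most like each other (0.996) and Wnt9a was most like Wnt7a (0.9904). Wnt5a (0.635 with Wnt2b) and Wnt4 (0.467 with Wnt5a) had no close match.

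The rest of the pathway was described with 45 genes in 4 lists, all of which passed the filter. At an FDR of 0.05, 6 were higher in the vestibule and 7 were higher in the cochlea, beside 15.8% and 11.6% of all genes, and 32 were not called. Leaving out 1 library moved the first count to 3 (without cochlea replicate 1) or 2 (without vestibule replicate 2) and the second to 4 (without vestibule replicate 2). Over all genes, the counts higher in the vestibule (2325) and cochlea (1711) were 1342 and 925 without vestibule replicate 2, the first was 1522 without vestibule replicate 1 and the second was 1035 without cochlea replicate 2. The median absolute log2 fold change of the 45 genes was 0.25, below the 0.32 of all genes tested.

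Among the 4 genes of Wnt acylation, release and inactivation, Notum was the only one called. It encodes the carboxylesterase that removes the lipid from Wnt proteins and had 466, 603 and 756 counts in the cochlea against 133, 73 and 65 in the vestibule. Its log2 fold change was -2.93 (SE 0.21, edgeR adjusted p = 2.45e-05). None of the list was called higher in the vestibule, with 0 at an unadjusted p under 0.05 in edgeR and 0 calls by DESeq2 or limma-voom. Porcn, which attaches the lipid, Wls, which carries Wnt proteins to the cell surface, and the protease gene Trabd2b were not called. The libraries of the tissues did not overlap for Wls (303, 266 and 299 CPM in the cochlea against 362, 348 and 368 CPM in the vestibule) or Porcn (15.8, 14.4 and 16.7 against 18.2, 17.99 and 17.0 CPM). With TMM scaling the log2 fold change was 0.20 (SE 0.12, edgeR adjusted p = 0.269) for Wls and 0.06 (SE 0.13, adjusted p = 0.756) for Porcn.

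Of the 16 receptors and co-receptors, 3 were higher in the vestibule, 4 were higher in the cochlea and 9 were not called. Ror1, a non-canonical receptor, was at 32.4, 32.1 and 35.4 CPM in the cochlea against 107, 106 and 75.7 CPM in the vestibule, with a log2 fold change of 1.40 (SE 0.14, edgeR adjusted p = 0.000158). Its paralogue Ror2 differed by 0.67 (SE 0.15, adjusted p = 0.00964) and lost its call without vestibule replicate 2, at an adjusted p of 0.0588. Fzd8 was at 49.9, 55.3 and 44.8 CPM in the cochlea against 22.0, 20.1 and 20.7 CPM in the vestibule, with a log2 fold change of -1.38 (SE 0.14, adjusted p = 0.000171). For Fzd2 the log2 fold change was -0.83 (SE 0.13, adjusted p = 0.00152).

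Of the 17 intracellular transducers, 1 was higher in the vestibule, 2 were higher in the cochlea and 14 were not called. By DESeq2, 3 were higher in the vestibule and 12 were not called. The 2 further calls were Dvl1 and Apc, named here after their values were seen. Their log2 fold changes in edgeR were 0.98 (SE 0.32, adjusted p = 0.0523) and 0.91 (SE 0.30, adjusted p = 0.0551). Dvl1 was at 17.9, 15.0 and 27.0 CPM in the cochlea against 65.1, 39.6 and 24.6 CPM in the vestibule. Apc was at 96.0, 96.8 and 142 CPM against 345, 218 and 127 CPM. The tissues overlapped for both genes, and vestibule replicate 1 was the highest library of each. Lef1, a partner of beta-catenin on DNA, had a log2 fold change of -0.90 (SE 0.17, edgeR adjusted p = 0.00431) and kept its call in all 14 alternative fits. Tcf7, a related factor, had 0.42 (SE 0.11, adjusted p = 0.023) and lost its call in 6 of 14 alternative fits, among them those without cochlea replicate 1 or 2 or vestibule replicate 2 or 3, with adjusted p up to 0.124. Pygo1, a co-activator, had -0.47 (SE 0.12, adjusted p = 0.0188) and lost it in 4 of 14, among them those without TMM scaling and without vestibule replicate 2 or 3, with adjusted p up to 0.122.

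Of the 8 feedback targets, 2 were higher in the vestibule and 6 were not called. Apcdd1, a membrane inhibitor of Wnt signalling, was at 149, 161 and 180 CPM in the cochlea against 417, 329 and 324 CPM in the vestibule, 2.01-fold higher by the fit (log2 scale SE 0.14, edgeR adjusted p = 0.000866). Nkd1, which acts on Dishevelled, had 0.52 (SE 0.15, adjusted p = 0.0295) and lost its call in 3 of 14 alternative fits, among them those without cochlea replicate 1 or vestibule replicate 2, with adjusted p up to 0.127. None of these 8 was higher in the cochlea, with 0 at an unadjusted p under 0.05 in edgeR and 0 calls by DESeq2 or limma-voom. This count depends on how genes were assigned to lists. Notum (log2 fold change -2.93) and Lef1 (-0.90), both called higher in the cochlea, were counted in other lists. Axin2, the most used readout of canonical signalling and named here after its values were seen, was at 37.9, 64.9 and 76.0 CPM in the cochlea against 98.0, 92.3 and 64.9 CPM in the vestibule. The tissues overlapped, and its log2 fold change of 0.38 (SE 0.25, edgeR adjusted p = 0.299) had a 95% interval from -0.19 to 0.95.

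**Figure D4:**
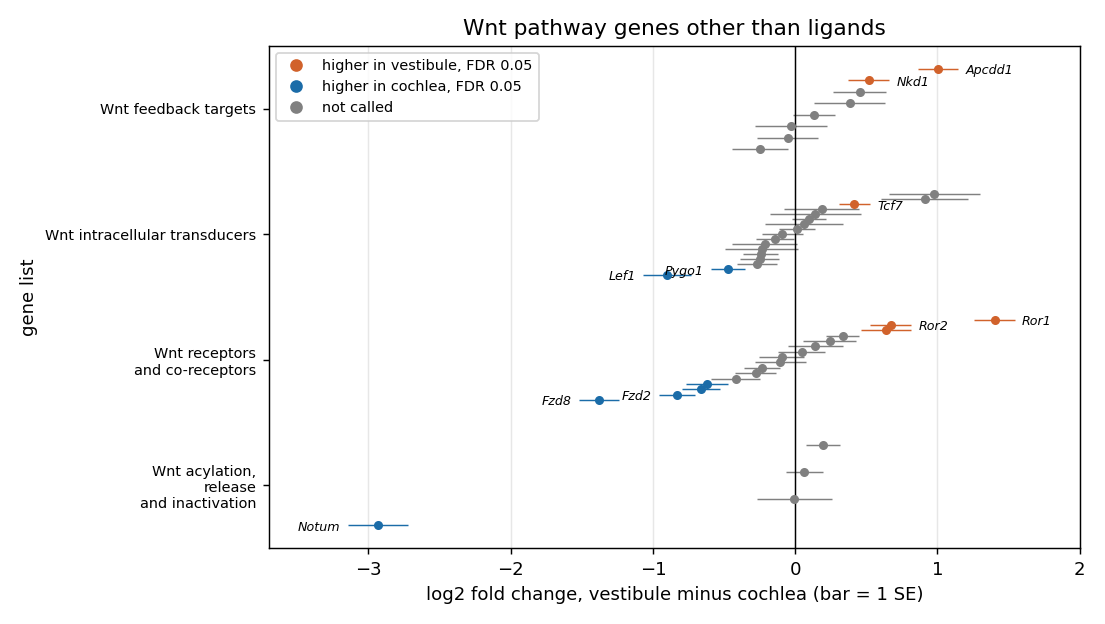
Log2 fold change, vestibule minus cochlea, of the 45 pathway genes other than ligands in 4 lists, with a bar of 1 SE to each side; colours mark the calls at an FDR of 0.05 and the genes named by rule are labelled. Notum stands apart at -2.93 and the other genes lie between -1.38 for Fzd8 and 1.40 for Ror1.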

How the data were processed

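RNA was extracted by the authors from cochlear and vestibular sensory epithelia, and stranded poly(A) libraries were sequenced as 100 bp pairs. Per the labels' processing notes and the study's methods, TopHat2 2.1.0, SAMtools 0.1.18, HTSeq 0.5.4p5 and edgeR 3.4.2 were used with GRCm38. The authors deposited raw counts per Ensembl gene, which end in 5 summary lines (18.5% to 20.6% of each file) that stayed out of all sums. A further deposited table holds log2 RPKM of 14722 genes, scaled by library size without TMM, which was used for levels between genes.

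The quasi-likelihood test was run on genes that reached 1 CPM in no fewer than 3 libraries, with edgeR 4.0.16 in R 4.3.3 after TMM scaling, with Benjamini-Hochberg adjustment over 14723 genes and no replicate block, on 3 libraries against 3. The SE is the log2 fold change divided by the root of F. The log2 CPM for likeness used a prior count of 0.5. DESeq2 1.42.0 and limma 3.58.1 were alternatives. Replicates differed by more than counting noise (chi-square per degree of freedom of 28.6 to 99.6), so none was counted as a duplicate. Coordinates of genes are from GENCODE vM21.

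The ligands and the gene lists were chosen with earlier results of these data known. Named were all ligands, other Wnt genes that passed the filter or neighbour a ligand, the 2 most changed called genes of each pathway list in each direction, the 3 genes most like Wnt3 and the ligand most like each other ligand. Axin2, Dvl1, Apc, Fzd5, Fzd10, Fbxl14, Gm2670 and AU022754 were named after their values were seen.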

Additional observations from a re-analysis of the deposited data

How the results depend on the processing

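The 7 called ligands kept their direction and their call in 98 of 98 alternative fits (14 for each), including the fit with the replicate number as a block, which changed no call among the ligands. Wnt5a had a log2 fold change of 0.0962 without TMM and of -0.0585 to 0.0273 when 1 library was left out, positive without cochlea replicate 3 (0.0273), vestibule replicate 1 (0.0058) or vestibule replicate 2 (0.0188). Without TMM the median over all genes was 0.13 on the log2 scale, and 68.8% of calls were higher in the vestibule (2754 against 1251 genes) in place of 57.6% (2325 against 1711). Of the pathway genes, 3 were higher in the vestibule with the replicate block in place of 6, and 2 to 9 when 1 library was left out (3 without cochlea replicate 1, 2 without vestibule replicate 2). For the cochlea the count was 5 with the block in place of 7, and 4 to 7 when 1 library was left out, lowest without vestibule replicate 2. The calls lost with the block were Fzd5, Tcf7 and Nkd1 in the vestibule and Fzd10 and Pygo1 in the cochlea. Over all genes, 1342 to 2694 were higher in the vestibule with 1 library left out (1522 without vestibule replicate 1, 1342 without vestibule replicate 2). In the cochlea 1009 were higher with the block, and 925 to 1863 with 1 library left out (1035 without cochlea replicate 2, 925 without vestibule replicate 2). The causes were not tested. Deviations of same-numbered libraries correlated at -0.18, -0.26 and -0.48, so the numbers were not taken as pairs. Those of differently numbered libraries correlated at -0.27 to 0.41, highest for cochlea replicate 3 with vestibule replicate 2. The share of Wnt5a in the vestibule was 30.2% with exon lengths of GENCODE vM21. With the same lengths the shares of Wnt7b (26.1% in the cochlea, 10.2% in the vestibule) and Wnt5b in the vestibule (4.26%) also moved by more than 1 SD.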
